A study of Drosophila melanogaster with 34 samples.

Results

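The muscle structural genes described here are 10 Drosophila melanogaster genes whose products build the contractile apparatus: Mhc, Mlc2, Act57B, Act87E, Tm1, Tm2, up, wupA, Mlp60A and Mlp84B. They were found by gene symbol among the 13931 rows of the embryo messenger RNA table, and by symbol and region as 30 exon, 5′ UTR and 3′ UTR rows among the 46612 rows of the sense small RNA table, of which 38056 are exon or UTR rows. Every member was present in both tables. The series asked whether small RNA carried by sperm acts on the embryo of the next generation, and it holds 34 samples, 12 of embryo RNA and 22 of small RNA from sperm, seminal vesicle and testis. Libraries with a usable column numbered 12 for embryos and 18 for small RNA.

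The embryo groups are given in the labels only by mutation: paternal aub (5 libraries), maternal aub (2) and wt, written WT below (5). The sperm groups are piwi, aub and wt (3 libraries each), the seminal vesicle groups are PIWI IP (4 libraries) and total RNA (2 with a column, of 3 labelled), and the wt testis groups T1, T2 and T3 have 1 usable library each. The protein immunoprecipitated, Piwi, and Aub (Aubergine) are Argonaute proteins that bind piRNAs, the small RNAs that silence transposons. No allele, fly age, embryo stage or number of pooled animals is given, nor what T1 to T3 stand for. The names of all embryo columns begin with Old, and what this word means is not explained. Of the embryo columns named AUB, 3 carry no parent, while the others are named male or female. These 3 were taken as paternal because maternal libraries have columns of their own. They are all the paternal aub libraries of batch 1 below, so the parent is inferred for that group. Nothing says that replicates came from separate animals or cultures, so p-values measure the spread between these libraries, which may be technical.

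In muscle, filaments of myosin pull on filaments of actin, and tropomyosin with the troponin complex lets them do so only when calcium rises. Z-discs anchor the actin filaments, and LIM-domain proteins sit there. These genes are switched on late in embryogenesis, when the body wall muscles differentiate. In the adult male, testis and seminal vesicle are each wrapped in a sheath of muscle, while sperm themselves carry an axoneme and no muscle. In the RefSeq annotation of the Release 6 plus ISO1 MT assembly all members are protein-coding. Mhc, the muscle myosin heavy chain gene, lies at chr2L:16766566-16788766. On arm 3R, Act87E (a muscle actin) lies at chr3R:13425983-13428375, the tropomyosin genes Tm1 and Tm2 are neighbours at chr3R:15278220-15308779 and chr3R:15310193-15315197, Mlc2 (the myosin regulatory light chain) lies at chr3R:30171438-30174551 and Mlp84B (a muscle LIM protein) at chr3R:7112850-7117732. The troponin T gene up lies at chrX:13593474-13602578 and the troponin I gene wupA at chrX:18105568-18116922, while the muscle actin gene Act57B and the muscle LIM protein gene Mlp60A are on arm 2R.

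Total counts were 1690431 to 16289732 per embryo library, 2325192 to 18515091 per small RNA library on the sense strand, and 213146 to 1859522 on sense exon and UTR rows. The column names mark a second batch of embryos (6 libraries), and the other 6 are called batch 1. In batch 1, aub messenger RNA was at 3.95 to 4.92 CPM (counts scaled to a common library size) in paternal aub libraries and 17.0 to 53.5 CPM in WT libraries. In batch 2 it was at 7.08 to 15.1 CPM in paternal aub, 2.41 to 6.61 CPM in maternal aub and 4.49 to 5.37 CPM in WT libraries, so it did not separate the genotypes there. Messenger RNA of piwi was also lower in batch 1, at 3.78 to 9.94 CPM in paternal aub and 17.5 to 85.1 CPM in WT libraries. The low level in batch 1 was therefore not particular to aub and does not check the genotype. Testis libraries held 29 germline and testis marker genes at a summed 36242 to 44125 fragment CPM (CPM of small RNA reads relative to the sense exon and UTR counts of the library alone), against 465.7 to 854 fragment CPM in WT sperm. The sperm libraries carried fragments of muscle genes too, as given below.

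In batch 1, messenger RNA of 4 of the 10 genes was higher in paternal aub embryos than in WT embryos: Mhc, Act57B, Act87E and Mlp84B, by 1.70-fold to 1.97-fold. The background is high, since 22.6% of all 10371 genes tested were called higher in this comparison and 2167 genes were called lower. All members but Mlp60A had a positive difference, and their median log2 fold change was 0.72, against 0.07 for all genes. None was called lower.

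Mhc, the motor of the thick filament, stood at 19786, 23021 and 15893 CPM (scaled by edgeR's TMM factors) in the paternal aub libraries of batch 1 and at 10853, 12124 and 6817 CPM in the WT libraries of that batch. The lowest paternal aub library was above the highest WT library. The difference was a log2 fold change of 0.98 ± 0.25 (SE), with an adjusted p of 0.0055 by edgeR's quasi-likelihood test, and it stayed past 0.05 whichever library of the batch was left out. Mlc2, its regulatory light chain, was at 11506, 8324 and 5402 CPM in paternal aub and 6062, 9385 and 3074 CPM in WT libraries. Here the ranges overlapped widely, and the log2 fold change of 0.45 ± 0.34 missed the threshold (edgeR adjusted p = 0.31).

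Of the actin genes, Act57B was at 15243, 13117 and 9430 CPM in paternal aub and 5819, 10668 and 3412 CPM in WT libraries. The second WT library was above the third paternal aub library, so the groups overlapped, and the log2 fold change was 0.93 ± 0.33 (edgeR adjusted p = 0.0339). Act87E was at 1770.5, 1726 and 1306 CPM in paternal aub and 726, 1300 and 527 CPM in WT libraries. The groups touched but did not overlap, and the log2 fold change was 0.91 ± 0.29 (edgeR adjusted p = 0.0208). The handling of reads that match several actin genes is not stated, so the split of counts between these genes and other actins is uncertain.

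The regulators of the thin filament did not pass the test. Tm2 was at 4097, 2854 and 2447 CPM in paternal aub and 1765, 3040 and 801 CPM in WT libraries (log2 fold change 0.74 ± 0.36, edgeR adjusted p = 0.107). Its neighbour Tm1, whose products include tropomyosins of non-muscle cells, was at 4878, 4186 and 2547 CPM in paternal aub and 4521, 4046 and 1920 CPM in WT libraries (0.15 ± 0.31, edgeR adjusted p = 0.725). Both overlapped between the groups, Tm1 almost completely. The troponin T gene up was at 2753, 2896 and 2786 CPM in paternal aub libraries, the closest together of the paternal aub values of any member in that batch, and at 1768, 2431 and 980.0 CPM in WT libraries. These did not overlap, yet the log2 fold change of 0.70 ± 0.28 just missed the threshold (edgeR adjusted p = 0.0551). Troponin I, encoded by wupA, was at 2754, 2088 and 1567 CPM in paternal aub and 1348, 2442 and 602 CPM in WT libraries, which overlapped (0.54 ± 0.37, edgeR adjusted p = 0.254).

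The LIM protein genes differed from each other. Mlp84B was at 901, 801 and 496 CPM in paternal aub and 469, 570 and 254 CPM in WT libraries, with a log2 fold change of 0.76 ± 0.30 that lay at the threshold (edgeR adjusted p = 0.0496). Mlp60A was at 1736, 1679 and 936 CPM in paternal aub and 1858, 1883 and 783 CPM in WT libraries, overlapping in full (-0.06 ± 0.32, edgeR adjusted p = 0.901). In all, 3 members (Mhc, Act87E and up) did not overlap between the groups, against 45.2% of all genes.

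**Figure D1:**
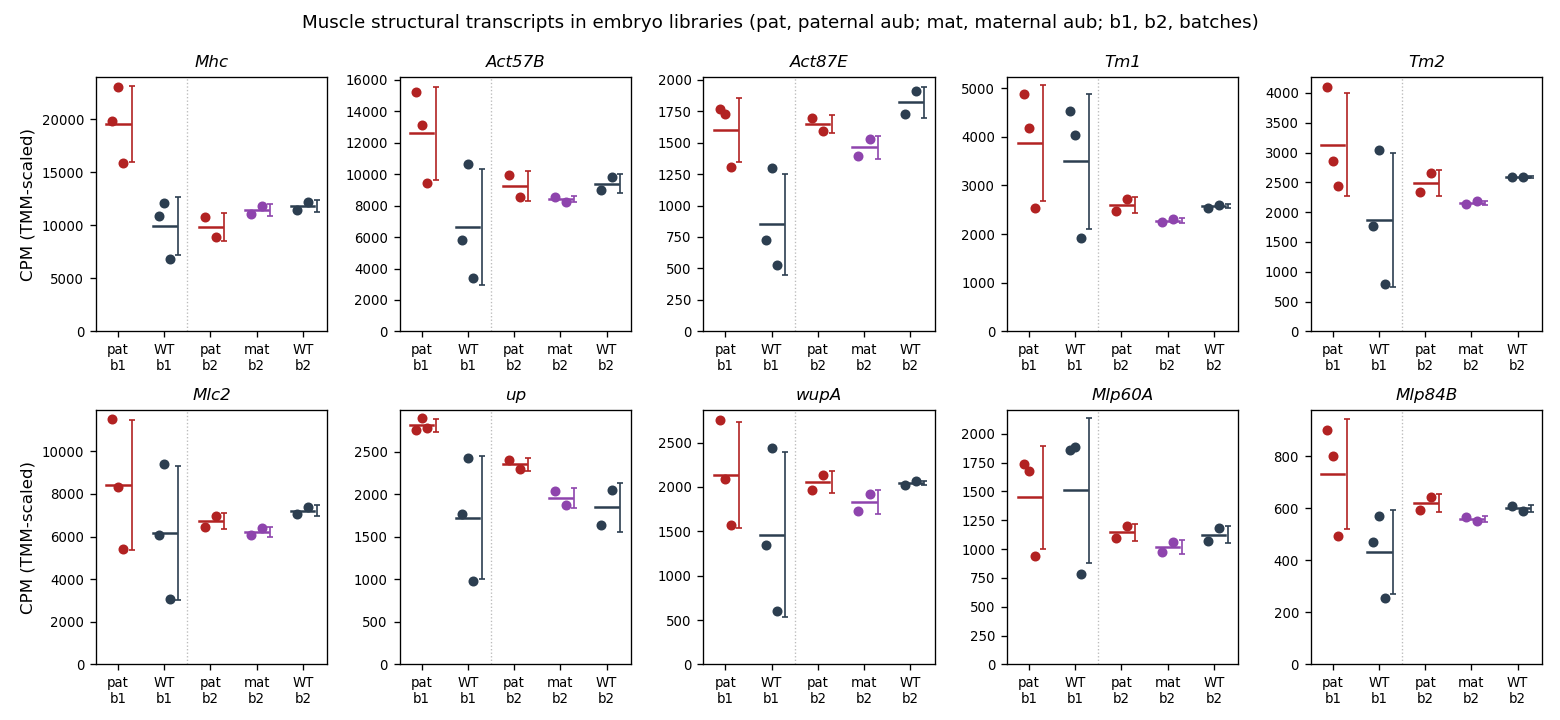
Messenger RNA of each of the 10 genes in every embryo library, in CPM scaled by TMM factors (vertical axes from 0, one per gene); points are libraries, horizontal lines group means and bars 1 SD, with paternal aub (pat) and maternal aub (mat) left of WT in each batch (b1, b2). In batch 1 the third WT library is the lowest of its group for every gene, and in batch 2 all groups lie close together.

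The third WT library of batch 1 was the lowest of the batch for all 10 members, and the second WT library was the highest WT library for all but Tm1. Without the third WT library the median log2 fold change of the members was 0.40 and only Mhc was called. Without the second WT library it was 1.08 and 8 members were called, with Tm2 at 1.28, wupA at 1.13, up at 1.03 and Mlc2 at 0.88 joining the 4. Mhc alone was also called without the first or the second paternal aub library or the first WT library. Calls over all genes with a library left out are not given here, so these counts do not set the members apart from other genes. A fit with total counts in place of TMM factors called Mhc and Act87E only, moved Tm1 to -0.055 and put the median of all genes at -0.15 (1806 genes higher, 2745 lower), while a fit of these 6 libraries alone called Mhc only.

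Transcripts of other tissues also moved in the same comparison. The members' summed messenger RNA was 42810 to 65423 CPM in paternal aub and 19169 to 47890 CPM in WT libraries of batch 1. Of 11 neuron marker genes tested, 10 were higher in paternal aub libraries (summed 1393 to 3348 CPM, against 502 to 604 CPM in WT). Of 18 maternal transcripts that early embryos degrade, 14 were lower and none higher (summed 1020 to 1531 CPM, against 3062 to 6258 CPM in WT). Fat body and hemocyte markers summed to 19879 to 25202 CPM in paternal aub and 7830 to 8816 CPM in WT libraries. The embryo stage is not given, and the part of any of these in the members' differences was not tested. In whole-embryo RNA, a difference in the number of muscle cells and a difference in RNA per muscle cell cannot be told apart.

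In the second batch no member was called in any comparison. For paternal aub against WT embryos the log2 fold changes ran from -0.27 (Mhc) to 0.35 (up) with SEs of 0.30 to 0.46, and their median was -0.01 (0.03 with total counts); 0.0193% of all genes were called. Mhc was at 10733 and 8877 CPM in paternal aub and 11424 and 12214 CPM in WT libraries of that batch, so that both paternal aub libraries were below both WT libraries (-0.27 ± 0.30, edgeR adjusted p = 1). For up the order was the opposite, with 2405 and 2302 CPM in paternal aub and 1646 and 2049 CPM in WT libraries (0.35 ± 0.34, edgeR adjusted p = 1). Act57B was at 9928 and 8571 CPM in paternal aub and 8968 and 9821 CPM in WT libraries, with both WT libraries between the paternal aub ones. Non-overlap between the groups held for 4 members, against 38.8% of all genes. Summed over the members, messenger RNA was 37682 to 39695 CPM in paternal aub, 36706 to 37926 CPM in maternal aub and 39649 to 42409 CPM in WT libraries of batch 2.

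For maternal aub against WT embryos the members' log2 fold changes ran from -0.32 (Act87E) to 0.08 (up), with a median of -0.16, and 0.0675% of all genes were called. Mhc was at 11020 and 11853 CPM in maternal aub libraries and 11424 and 12214 CPM in WT libraries, which overlapped. Act87E was at 1397 and 1526 CPM in maternal aub and 1729 and 1908 CPM in WT libraries. Act87E was thus lower in both maternal aub libraries than in both WT libraries, with 2 libraries a group. The difference of -0.32 ± 0.36 did not pass the test (edgeR adjusted p = 1). That test takes its spread from all 12 embryo libraries of both batches. In total 8 members did not overlap, each lower in maternal aub, against 47.8% of all genes, counted in either direction.

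Paternal aub embryos were compared with maternal aub embryos of batch 2 directly. The difference was -0.22 ± 0.30 for Mhc and positive for the other 9 genes, up to 0.26 ± 0.34 for up. No member and 0% of all genes were called by edgeR, although 230 genes had an unadjusted p under 0.05 and DESeq2 called 5. All 10 members had groups that did not overlap, against 46.5% of all genes. Mlc2 shows the scale, with 6459 and 6988 CPM in paternal aub and 6063 and 6385 CPM in maternal aub libraries. Paternal and maternal aub libraries were each set against the same WT libraries above, so those comparisons share their controls.

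**Figure D2:**
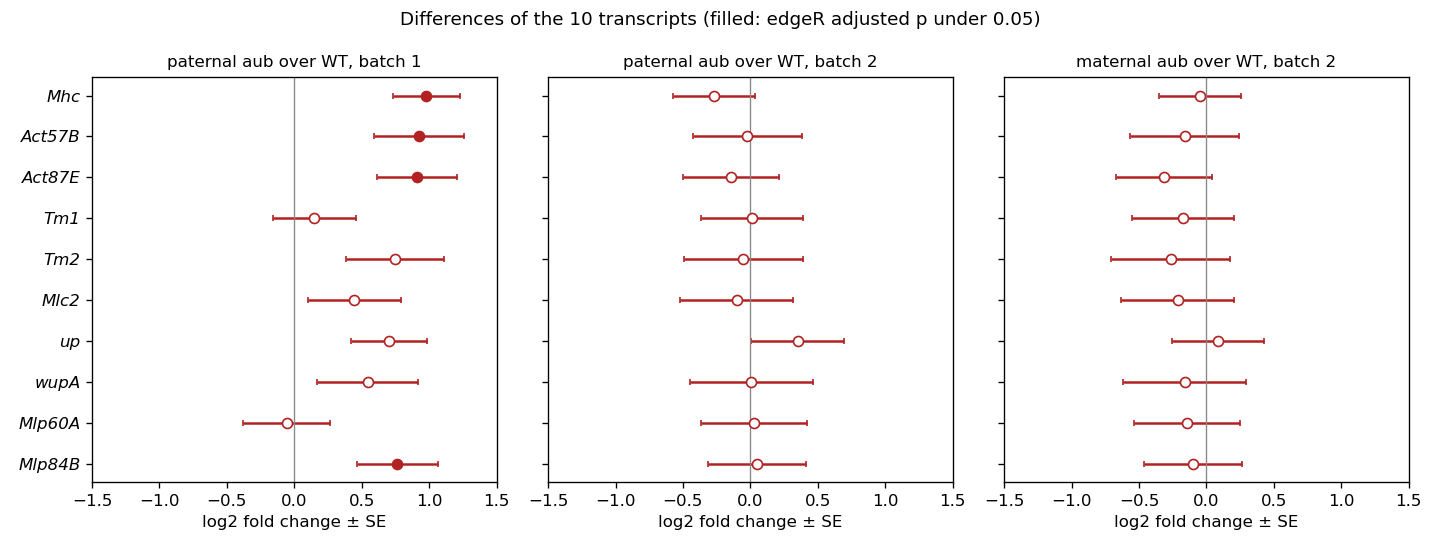
Log2 fold changes of the 10 genes with their standard errors (horizontal axes, 0 marked by a line) for paternal aub over WT in batch 1, paternal aub over WT in batch 2 and maternal aub over WT in batch 2; filled points have an edgeR adjusted p under 0.05. In batch 1 all genes but Mlp60A are right of 0 and 4 are filled (Mhc, Act57B, Act87E, Mlp84B), while no point is filled in batch 2.

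The difference between the batches was itself tested for each gene. The paternal aub difference in Mhc was larger in batch 1 than in batch 2 by 1.25 ± 0.39 on the log2 scale (edgeR adjusted p = 0.0355), and no other member passed, with 9.3% of all genes called larger in batch 1. Mhc lost this call when the first or second paternal aub library of batch 1, or any 1 of the paternal aub or WT libraries of batch 2, was left out. The other members gave -0.08 (Mlp60A) to 1.05 ± 0.46 (Act87E, edgeR adjusted p = 0.123), with 9 of 10 positive and a median of 0.63. WT embryos alone also differed between batches. Act87E was higher in batch 2 WT libraries (1729 and 1908 CPM) than in batch 1 WT libraries by 1.09 ± 0.32 (edgeR adjusted p = 0.0139), the only member called, against 19.3% of all genes called higher. Mhc differed by 0.25 ± 0.27 between the WT batches and Mlp60A by -0.42 ± 0.36. The batch 1 WT libraries were also more spread, with Mhc at 9931 ± 2771 CPM (SD, n = 3).

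Other muscle genes, of the sarcomere, its attachment and calcium handling, gave a wider view of the same contrast. Of 34 other muscle genes, 29 were tested, and 19 were higher in paternal aub embryos of batch 1 and none lower, with a median log2 fold change of 1.11. With total counts, 18 were higher and 1 lower, with a median of 0.88. These included the muscle calcium channel subunit gene Ca-alpha1D (2.04 ± 0.30), the nesprin gene Msp300 (2.02 ± 0.34), the myosin kinase-like gene Strn-Mlck (1.44 ± 0.27), the Z-disc gene Zasp52 (1.51 ± 0.28), the tendon matrix gene Tig (1.11 ± 0.22) and the tropomodulin gene tmod (1.25 ± 0.25). By role, 4 of 6 thick filament genes were higher, 1 of 6 thin filament genes, 9 of 12 Z-disc and attachment genes and 5 of 5 excitation and calcium genes. The 20 muscle regulators, transcription factors and fusion genes that act before the sarcomere is built, had 1 higher and 8 lower, with a median of -0.22. Non-muscle cytoskeleton genes had 1 higher and 1 lower of 10, with a median of -0.23.

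In batch 2 none of the 29 other muscle genes was called for paternal aub against WT (median -0.17), maternal aub against WT (median -0.14) or paternal against maternal aub (median -0.02). The difference between batches was called larger in batch 1 for 14 of them, among which Ca-alpha1D (2.37 ± 0.47), Msp300 (2.26 ± 0.52), RyR (the ryanodine receptor, 1.92 ± 0.44), Prm (paramyosin, 1.75 ± 0.44), Strn-Mlck (1.63 ± 0.42) and Unc-89 (obscurin, 1.52 ± 0.37) had the smallest p-values. In WT embryos, 9 of the 29 were higher in batch 2 than in batch 1, and the 6 with the smallest p-values were Ca-alpha1D (1.74 ± 0.33), Lmpt (1.42 ± 0.33), bt (a titin-like kinase, 1.29 ± 0.31), tmod (1.03 ± 0.27), Argk (arginine kinase, 1.02 ± 0.28) and Tig (0.67 ± 0.24). Markers of other tissues and of stage moved in both of these comparisons. In the difference between batches, 10 of 11 neuron markers (median 2.42) and 6 of 11 fat body and hemocyte markers (median 1.28) were larger in batch 1, and 13 of 18 early-degraded maternal transcripts were smaller (median -4.47). In WT embryos of batch 2 against batch 1, 10 of 11 neuron markers (median 2.30) and 8 of 13 cuticle and epidermis markers (median 1.28) were higher, and 15 of 18 maternal transcripts were lower and 1 higher (median -3.88). Neuron markers summed to 2011 to 2486 CPM in WT libraries of batch 2 and 502 to 604 CPM in those of batch 1. The part of these in the muscle genes' differences was not tested.

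Over the 12 embryo libraries, most but not all of the members had levels that moved alike. The Pearson r of log2 CPM between 2 members had a median of 0.75 over the 45 pairs and ran from 0.13 (Tm1 and Act87E) to 0.97, with Mlp60A and Act87E at 0.18 and Mlp60A and Tm1 at 0.96. Each member's log2 CPM had a Pearson r with the mean of the 10 standardized members between 0.71 (Tm1 and Mlp60A) and 0.97 (Tm2), a description that includes the member itself; of all genes, 5% were above 0.78, which is higher than the values of Tm1 and Mlp60A. Among genes outside the members, the closest to that mean were Ilk, the integrin-linked kinase of muscle attachment sites (r = 0.98), Chmp1 (r = 0.96), CG15422, CG12811 and CG16727 (r = 0.95 each). Within batch 1 these 5 gave r of 0.96 to 0.99, over 6 libraries, and within batch 2 they gave 0.42 (Chmp1) to 0.92 (CG16727). Of the members, Mlp60A (r = 0.76) and Tm1 (r = 0.84) had the lowest r in batch 1, while in batch 2 it was Mhc (r = -0.16, against 0.90 in batch 1) and up (r = 0.31). The libraries differ in depth and batch, which all of these values share.

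The small RNA libraries hold short RNAs that cover these genes in the direction of transcription. Their levels are given in fragment CPM. Over the 18 libraries 110471 such counts fell on the members, from 275 to 14343 per library, and 37 counts in all lay antisense to them, on 23 antisense rows. Antisense counts were therefore 0.0335% of the members' counts, against 2.51% for all exon and UTR rows. Exons took 65.2% to 79.3% of the members' counts in each library, 3′ UTRs 16.4% to 30.1% and 5′ UTRs 4.36% to 6.68%. All exon and UTR rows together gave 63.4% to 73.3% in exons, 18.9% to 27.4% in 3′ UTRs and 7.57% to 11.3% in 5′ UTRs.

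The genes differed in which of their regions were covered. In WT sperm, exons held 87.4% of the counts of Mhc and 84.9% of those of Act87E, but 37.6% of those of wupA, 43.0% of Tm1 and 52.1% of Mlc2. The 3′ UTR held 47.6% of the counts of wupA, 46.8% of Tm1 and 43.9% of Mlc2. For up, the 5′ UTR held 29.7% of the counts, the highest share of any member. Region lengths were not used, so these are shares of counts and not densities.

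Summed over the 10 genes and relative to exon and UTR counts, the fragments were most abundant in seminal vesicle total RNA and least abundant in testis. Seminal vesicle PIWI IP libraries had 4686, 7713, 5814 and 6795 fragment CPM, and seminal vesicle total RNA 19618 and 14635. The testis libraries T1, T2 and T3 had 1290 (exact 95% binomial interval 1142 to 1452), 2472 (2273 to 2683) and 2507 (2340 to 2683). Piwi mutant sperm had 14698, 12077 and 7097 fragment CPM, aub mutant sperm 15353, 7156 and 6258, and WT sperm 11041, 9464 and 14024. These libraries have no stated molecular identifiers, so intervals cover counting error only. The sperm groups overlapped each other, every testis library was below every other library, and both seminal vesicle total RNA libraries were above all 3 WT sperm libraries. The order was another relative to all sense counts, where the members stood at 339 to 862 CPM in the seminal vesicle PIWI IP, 460 to 497 CPM in seminal vesicle total RNA, 79.2 to 165 CPM in testis, 643 to 1308 CPM in piwi mutant sperm, 680 to 1421 CPM in aub mutant sperm and 681 to 1392 CPM in WT sperm. On that scale seminal vesicle total RNA was below every sperm library and within the range of the PIWI IP, and testis was again the lowest.

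**Figure D3:**
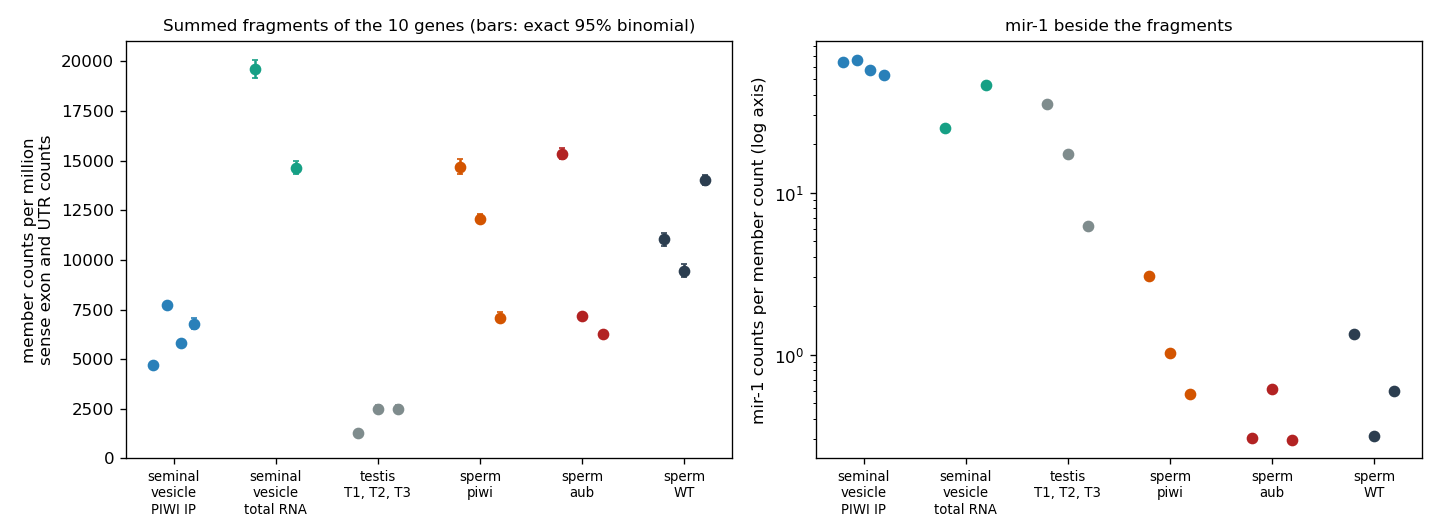
Left, sense counts on the exon and UTR rows of the 10 genes relative to all sense exon and UTR counts in each library (fragment CPM, vertical axis from 0; bars are exact 95% binomial intervals). Right, counts of mir-1 per count of the members in the same libraries (log axis); points are libraries, and the sperm libraries lie between 0.299 and 3.05 while all seminal vesicle libraries lie above 25.

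Neither mutation changed the fragments in sperm past the threshold. Of the 30 rows, 29 passed the filter on low counts (the 5′ UTR of Tm2 did not). For piwi mutant against WT sperm none of the 29 rows was called, against 0.796% of all exon and UTR rows tested. The log2 fold changes ran from -0.78 to 0.49 with a median of -0.07 (0.01 for all rows), edgeR adjusted p-values from 0.549 to 0.993, and no row had an unadjusted p under 0.05. Mhc exon fragments were at 4005, 3350.5 and 1748 fragment CPM in piwi mutant and 3773, 2457 and 3709 in WT sperm, which overlapped (-0.13 ± 0.41). The row with the highest fold change, the exons of Act87E, was at 1437, 1123 and 722 fragment CPM in piwi mutant and 693, 641 and 990 in WT sperm (0.49 ± 0.28). No member's summed fragments were separate between piwi mutant and WT sperm, against 15.8% of all genes.

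For aub mutant against WT sperm, no row was called, against 1.62% of all exon and UTR rows. The log2 fold changes ran from -0.95 to 0.35, with a median of -0.27 (0.015 for all rows), and 6 of 29 were positive (11 of 29 with total counts). Unadjusted p-values under 0.05 were found for the 3′ UTRs of Mlc2 (-0.81 ± 0.35) and up (-0.80 ± 0.32), whose edgeR adjusted p-values were 0.29 and 0.252. The first aub mutant library stood above the other two for every member: Mhc fragments, for example, were at 5008, 1919 and 1700 fragment CPM in aub mutant sperm and 4190, 2859 and 4294 in WT sperm. Without that library the median became -0.88, and 3.45% of the rows tested, that is 1 row, was called. No member's summed fragments were separate between aub mutant and WT sperm, against 19.5% of all genes.

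Set directly against piwi mutant sperm, aub mutant sperm gave log2 fold changes with a median of -0.22 (0.01 for all rows), 5 of 29 positive (14 of 29 with total counts) and none called, against 0.425% of all exon and UTR rows. Without the first aub mutant library the median was -0.79, again with none called. Of 63 rows of other muscle genes, none was called in piwi mutant against WT, aub mutant against WT or aub against piwi mutant sperm with TMM factors, and 1 was lower in aub mutant against WT sperm with total counts. Markers of accessory gland and seminal vesicle varied widely among sperm libraries of 1 group, summing to 958 to 7370 fragment CPM in piwi mutant, 3321 to 5154 in aub mutant and 1608 to 6953 in WT sperm. The part of this variation in the members' levels was not tested. The muscle regulators Hand, lmd, nau, slou and tin were at 0 in all WT sperm libraries. Of these, nau, slou and tin were also at 0 in all seminal vesicle libraries, and nau and slou in all testis libraries. The zeros were therefore not particular to sperm for these genes. Summed over the whole list, fragments of muscle regulators stood at 1198 to 1332 fragment CPM in WT sperm.

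The PIWI immunoprecipitate of the seminal vesicle held relatively less of these fragments than total RNA of the organ. Of 29 rows tested 23 were lower in the PIWI IP and none higher, against 8.79% of all exon and UTR rows called lower, and all 29 differences were negative with a median log2 fold change of -1.49 (0.08 for all rows). This depends on the scaling: with total counts in place of TMM factors the members' median was 0.60 and that of all rows 2.08, so that the members stayed below the bulk of rows while the sign turned. Exon and UTR rows took 7.23% to 12.7% of all sense counts in the PIWI IP and 2.54% to 3.15% in total RNA. Relative to other exon and UTR counts, all 10 genes were lower in every PIWI IP library than in both total RNA libraries. Of all genes, 42.1% did not overlap, counted in either direction.

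By gene, Mhc exon fragments were at 1293, 2396, 1822 and 2167 fragment CPM in the PIWI IP and 5907 and 3946 in total RNA (log2 fold change -1.55 ± 0.25, edgeR adjusted p = 0.000591). Act57B exon fragments were at 768, 1293, 750.5 and 919 fragment CPM in the PIWI IP and 3810.5 and 2716 in total RNA (-1.98 ± 0.25, edgeR adjusted p = 9.08e-05). The groups were far apart for both, with every PIWI IP library below every total RNA library. With total counts these turned to 0.59 for Mhc and 0.10 for Act57B, neither called. The largest change was in the 5′ UTR of Mhc, at 14.7, 14.5, 12.5 and 10.2 fragment CPM in the PIWI IP and 120.6 and 76.7 in total RNA (-3.00 ± 0.36), from 3 to 46 counts a library. All 10 exon rows fell, those of Mlp60A (-2.46 ± 0.44) and Mlc2 (-2.07 ± 0.25) most and that of Tm1 (-1.20 ± 0.22) least. The 6 rows not called were the 5′ UTRs of Act87E, Tm1, Mlp60A and Mlp84B and the 3′ UTRs of Act87E and Mlp84B. Without the first total RNA library 36.7% of the members' rows were called. The calls over all rows also changed with a library left out, as given below.

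The other muscle genes were less uniform in this comparison, with 25 rows lower and 4 higher of 75 and a median of -0.74 under TMM scaling. With total counts 38 were higher and none lower, with a median of 1.36. Most of all rows tested were called higher in that fit too, as given below. Fragments of Mlc1, the essential light chain, were lower (exon -1.98 ± 0.29, 3′ UTR -2.35 ± 0.33), as were those of the troponin C gene TpnC47D (exon -2.41 ± 0.37) and of Mf, myofilin (3′ UTR -1.61 ± 0.25). Those of Msp300 were higher (3′ UTR 1.85 ± 0.26, exons also called). Thick filament genes had 11 rows lower of 16 and none higher, and thin filament genes 7 of 12 and none higher, again under TMM scaling. Excitation and calcium genes had 4 of 13 lower and none higher, with a median of -0.01. Z-disc and attachment genes had 4 rows higher and 3 lower of 34, with a median of 0.04. Their summed levels were 32387 to 50240 fragment CPM in the PIWI IP and 14119 to 14671 in total RNA. Genes of other tissues moved in this comparison as well. Cuticle and epidermis markers had 9 of 16 rows lower in the PIWI IP and none higher, with a median of -1.58 (0.37 with total counts) and summed levels of 393.3 to 452 fragment CPM in the PIWI IP and 878 to 951 in total RNA. Non-muscle cytoskeleton genes had 5 of 28 rows lower and 1 higher, with a median of -0.48 (1.55 with total counts). Germline and testis markers had 16 of 46 rows higher and none lower, with a median of 1.22 (3.25 with total counts) and summed levels of 3082 to 4224 fragment CPM in the PIWI IP and 1150 to 1939 in total RNA. Their part in the members' differences was not tested.

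Seminal vesicle total RNA was set against WT sperm, the cells the organ stores. Of 29 rows, 3 were higher in seminal vesicle total RNA, against 7.29% of all exon and UTR rows, and 1 was lower, against 4.49%, and the median log2 fold change was 0.31 (-0.11 for all rows). The 3 were the 5′ UTRs of Mlc2, Mhc and Act57B. Mlc2 5′ UTR fragments were at 327.6 and 272.0 fragment CPM in seminal vesicle total RNA and 83.0, 29.1 and 61.2 in WT sperm, far apart (2.33 ± 0.38, edgeR adjusted p = 0.00335). Those of Mhc were at 120.6 and 76.7 fragment CPM in seminal vesicle total RNA and 29.3, 29.1 and 25.0 in WT sperm (1.79 ± 0.37, edgeR adjusted p = 0.0107). Those of Act57B were at 332.8 and 171.6 fragment CPM in seminal vesicle total RNA and 87.9, 99.1 and 97.3 in WT sperm (1.37 ± 0.33, edgeR adjusted p = 0.0231). None of these ranges overlapped, but the calls for Mhc and Act57B were lost without the first seminal vesicle library.

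The 3′ UTR of up was lower in seminal vesicle total RNA (52.4 and 45.6 fragment CPM) than in WT sperm (102.5, 110.8 and 95.9 fragment CPM), by -1.10 ± 0.32 (edgeR adjusted p = 0.0485), a call lost without either seminal vesicle library or without the second or the third WT sperm library. Without the first WT sperm library 27.6% of the members' rows were called. The calls over all rows also changed with a library left out, as given below. Exon rows were not called, and for Mhc they stood at 5907 and 3946 fragment CPM in seminal vesicle total RNA and 3773, 2457 and 3709 in WT sperm (0.55 ± 0.40), the groups just apart. The direction depended on the scaling here too. With total counts 19 rows were lower in seminal vesicle total RNA and none higher, and the 5′ UTR of Act57B turned to -0.28. Most of all rows tested were called lower in that fit too, as given below, so this count does not set the members apart. The median was -1.33 for the members and -1.69 for all rows. Summed by gene, 7 of the 10 were higher in both seminal vesicle total RNA libraries than in all WT sperm libraries, the exceptions being up, Mlp60A and Mlp84B. Of all genes, 47.0% did not overlap, counted in either direction. Of 61 rows of other muscle genes 3 were higher and 3 lower (2 higher and 48 lower with total counts). The exons of TpnC47D (3.59 ± 0.53) and Tig (3.45 ± 0.63) and the 5′ UTR of SERCA (1.73 ± 0.32) were higher. The exons of Zasp66 (-1.40 ± 0.32) and the 3′ UTRs of Calx (-1.24 ± 0.31) and Msp300 (-1.06 ± 0.29) were lower. Tissue and preparation cannot be told apart in this comparison.

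Testis held far fewer of these fragments than WT sperm. Of 29 rows, 26 were lower in testis, against 26.7% of all exon and UTR rows, and all were negative, with a median log2 fold change of -3.15 (-0.40 for all exon and UTR rows). With total counts all 29 were called lower. Each testis library is the only one of its group, so the fit assumes that it varies as the sperm libraries do. Mhc exon fragments were at 258, 525.6 and 351 fragment CPM in T1, T2 and T3 (55, 121 and 117 counts) and 3773, 2457 and 3709 in WT sperm (-3.35 ± 0.46, edgeR adjusted p = 2.67e-05). Act57B exon fragments were at 98.5, 256 and 324 fragment CPM in testis and 1508, 1658 and 2530 in WT sperm (-3.41 ± 0.44, edgeR adjusted p = 1.48e-05). For both, the highest testis library was far below the lowest WT sperm library. Mlp60A exon fragments gave 0, 1 and 3 counts in testis and 59, 24 and 82 counts in WT sperm (-5.71 ± 0.79), and up 3′ UTR fragments 0, 6 and 0 counts in testis and 42, 38 and 69 in WT sperm (-6.56 ± 0.76), so these fold changes rest on very few testis counts.

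Summed by gene, all 10 members were lower in every testis library than in every WT sperm library. Of all genes, 56.1% did not overlap, counted in either direction. By row, Act87E was the exception among the members in its exons and 3′ UTR, while its 5′ UTR was called lower. Its exon fragments were at 413, 573 and 666 fragment CPM in testis and 693, 641 and 990 in WT sperm, so the ranges overlapped, and the log2 fold change was -0.69 ± 0.32 (edgeR adjusted p = 0.0768). Its 3′ UTR gave -0.89 ± 0.37 (edgeR adjusted p = 0.0521), and the third row not called was the 5′ UTR of wupA (-1.59 ± 0.77, edgeR adjusted p = 0.0989). The Act87E exon row was called lower without T3 (-0.996), without the first WT sperm library (-0.92) or with total counts (-1.15), and it was at -0.32 without T1. Tm1 came next, with exons at -1.48 ± 0.32 (edgeR adjusted p = 0.00143). In testis, Act87E took the largest share of the members' counts, 629 fragment CPM on average, against 452 for Mhc and 279 for Act57B, whereas in WT sperm Act87E averaged 914 against 3781 for Mhc and 2761 for Act57B. These averages are levels of counts not divided by length. Reads shared with other actin genes could enter the Act87E rows, as their counting is not stated.

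**Figure D4:**
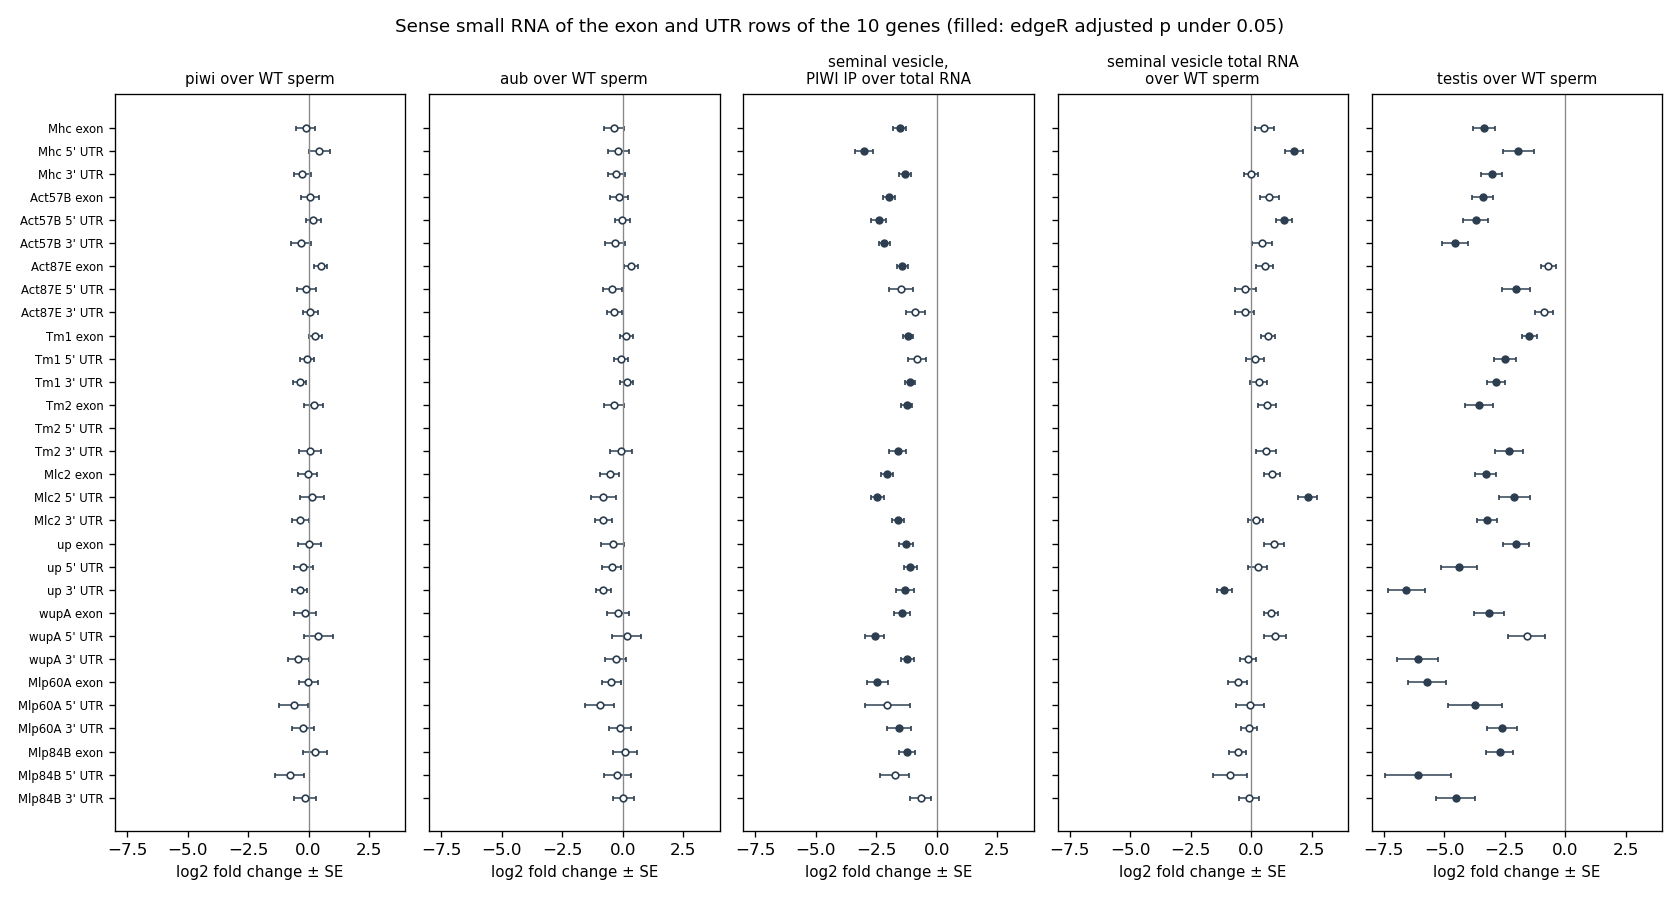
Log2 fold changes with standard errors (horizontal axes, 0 marked by a line) of the exon, 5′ UTR and 3′ UTR rows of the 10 genes in 5 small RNA comparisons, with TMM scaling; filled points have an edgeR adjusted p under 0.05, and the 5′ UTR of Tm2 was not tested. No row is filled for piwi or aub mutant sperm over WT sperm, 23 are filled and left of 0 for PIWI IP over total RNA (a direction whose median turns to 0.60 with total counts), and 26 are filled and left of 0 for testis over WT sperm.

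Rows of other muscle genes were also low in testis, with a median of -2.46. None was higher than in WT sperm, and 50 of 78 were lower, against 26.7% of all exon and UTR rows called lower. Those with the smallest p-values were rows of Msp300 (3′ UTR -3.86 ± 0.33, exon -2.84 ± 0.34), the integrin gene if (exon -3.11 ± 0.33), SERCA (exon -2.49 ± 0.29, 3′ UTR -2.17 ± 0.29) and Mf (exon -3.22 ± 0.43). Non-muscle cytoskeleton genes had 3 rows higher and 1 lower of 29, with a median of -0.26. Markers of accessory gland and seminal vesicle summed to 75.1 to 91.2 fragment CPM in testis and 1608 to 6953 in WT sperm, and germline and testis markers moved the other way, as given above. Without T1 the members' median was -2.25. The part of the organs' different composition in these differences was not tested.

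The muscle miRNA mir-1 did not keep a fixed ratio to the fragments. Relative to all sense counts, mir-1 was at 21853 to 50977 CPM in the seminal vesicle PIWI IP and 12471 and 21317 CPM in seminal vesicle total RNA. It was at 858 to 2874 CPM in testis, 365 to 2629 CPM in piwi mutant, 218 to 435 CPM in aub mutant and 313 to 920 CPM in WT sperm. Per count of the members there were 53.6 to 65.8 mir-1 counts in the seminal vesicle PIWI IP, 25.1 and 46.4 in seminal vesicle total RNA and 35.4, 17.4 and 6.24 in T1, T2 and T3, against 0.569 to 3.05 in piwi mutant, 0.299 to 0.609 in aub mutant and 0.316 to 1.35 in WT sperm.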

How the data were processed

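Embryo messenger RNA (12 libraries) and small RNA of sperm, seminal vesicle and testis (18) were used as raw counts per feature that the authors deposited, in 1 embryo table and in a sense and an antisense small RNA table. Bowtie 1.2.3, Subread 2.0.0 with featureCounts, SAMtools 1.8, cutadapt, Trim Galore 0.5.0 and the builds dm6 and BDGP6 served at unstated steps, per the submitters' processing notes. How reads with several positions were counted, and whether the embryo counts use strand, is not given in the sources used here. Per the labels' protocols, samples were prepared at more than 1 site, which is not given per sample. Columns were matched to samples by name. A further 3 columns in each small RNA table matched no sample and were not used, and the third seminal vesicle total RNA sample is not analysed here. Replicates all differed by more than counting error.

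Rows passing filterByExpr were scaled by TMM factors and tested by the robust quasi-likelihood F test of edgeR 4.0.16 (R 4.3.3), and p-values were adjusted over all rows tested (Benjamini-Hochberg, threshold 0.05). The embryo fit held all 12 libraries with 5 means, for paternal aub and WT in each batch and maternal aub in batch 2. A second batch is marked in 6 column names and the other 6 are called batch 1. Sense and antisense small RNA rows entered 1 fit per set. Standard errors are the log2 fold change over the square root of F. Embryo CPM, of single genes and of sums over lists, used TMM-scaled library sizes, and fragment CPM used the sense exon and UTR counts. The procedure was tested on simulated data. Alternatives were DESeq2 1.42.0, its size factors, no filter, a replicate block, other sample sets and each library left out, and total counts as library sizes, chosen after seeing the data. The text names all 10 members, of the other muscle genes at most 6 past the threshold with the smallest p per comparison, and the 5 genes closest to the members' mean. Members and lists were chosen with earlier results of these data known. Coordinates are from RefSeq's annotation of the same assembly, and no sequence of these genes was used.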

Additional observations from a re-analysis of the deposited data

Results flagged for a closer look

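A library far from its group was looked for in 60 sets of values, those of each member in the paternal aub and WT embryo groups (5 libraries each, both batches together) and of the member rows and their sums by gene in the seminal vesicle PIWI IP (4 libraries). In total 3 were found, and chance gives about 1 in 20. Mhc messenger RNA was at 6817 CPM in the third WT embryo library of batch 1, far below the other 4 WT libraries. In the seminal vesicle PIWI IP, Act87E 5′ UTR fragments were at 30.5 fragment CPM in the fourth library and Mlc2 exon fragments at 501 fragment CPM in the second, each apart from the other 3 libraries. The paternal aub difference in Mhc differed between embryo batches by 1.25 on the log2 scale (edgeR adjusted p = 0.0355).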

How the results depend on the processing

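Embryos, paternal aub against WT in batch 1: members called higher numbered 4 with all libraries, 1 in a fit of these 6 libraries alone, 0 with both batches together and no batch term (6 genes in all, against 4516) and 2 with total counts, under which Tm1 turned to -0.055. With each library left out they numbered 1 to 8, Tm1 lay between -0.15 and 0.37 and Mlp60A between -0.37 and 0.18, while Mhc stayed called. In batch 2, no alternative called a member for paternal aub against WT, maternal aub against WT or paternal against maternal aub. Genes called in all were 2 for paternal aub against WT (85 in a fit of its own libraries, 1 with any library left out), 7 for maternal aub (DESeq2 24, no filter 11, own libraries 392, leave-one-out 1 to 4) and 0 for paternal against maternal aub (DESeq2 5, own libraries 67). The difference between batches was called for 0 to 4 members and 792 to 3611 genes with a library left out, and the difference between WT batches for 0 to 4 members and 1932 to 4965 genes.

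Sperm: all rows called numbered 97 for piwi mutant against WT (DESeq2 184, no filter 367, leave-one-out 40 to 138), 199 for aub mutant against WT (DESeq2 347, no filter 648, leave-one-out 34 to 164) and 56 for aub against piwi mutant (DESeq2 132, no filter 320, leave-one-out 14 to 72). Members called were 0% to 3.45% of rows for aub mutant against WT with a library left out. Seminal vesicle, PIWI IP against total RNA: 79.3% of member rows were called, 6.90% with total counts (11797 rows in all, against 3435), where Mhc exons turned to 0.59 and Act57B exons to 0.10, and 36.7% to 89.7% (1407 to 4731 rows) with a library left out. Seminal vesicle total RNA against WT sperm: 13.8% were called, 3.33% with DESeq2, 0% with the rows of a gene summed and 65.5% with total counts (6322 rows in all, 2407 with no filter, against 1459), where the 5′ UTR of Act57B turned to -0.28. With a library left out it was 3.45% to 27.6% (512 to 2728 rows). With total counts the split of all calls moved from TMM scaling as follows: for the difference between embryo batches 665 higher and 1401 lower (TMM 965 and 1127), for aub against piwi mutant sperm 50 and 20 (30 and 26), for PIWI IP 11624 and 173 (1569 and 1866), for seminal vesicle against WT sperm 357 and 5965 (989 and 470) and for testis 4214 and 5494 (5004 and 4418). Except where an alternative uses fewer libraries or more rows, the cause was not tested. Testis libraries gave 0 to 222 counts per member row, which limits those fold changes.

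Libraries of different groups with the same number did not all deviate together. Their correlations were -0.06, -0.05 and 0.04 in embryo batch 1, 0.15, 0.13 and -0.03 for aub mutant and WT sperm, 0.16, 0.10 and -0.07 for piwi mutant and WT sperm, 0.15, -0.05 and 0.12 for aub and piwi mutant sperm, and 0.18 and 0.05 in the seminal vesicle. No comparison with 3 pairs had all of them over 0.1 or every library closest to its own number, so the numbers were not taken to pair the libraries. A replicate block moved the members called in batch 1 to 6, with the calls over all genes not given here. It moved all genes called for paternal aub in batch 2 to 0. All rows called for aub mutant sperm became 304 against WT and 86 against piwi mutant.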
